A study of Mus musculus with 7 samples.

Results

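Somatostatin interneuron nuclei were 58 of the 32312 hippocampal nuclei that held at least 2000 and under 50000 transcripts and more than 400 genes. They were chosen by their own transcript counts, that is, by measured values. A nucleus was taken when Gad1 and Gad2 together gave at least 3 transcripts, Slc17a7 gave at most 1, the sum of Nxph1, Lhx6 and Sox6 exceeded Adarb2, and Sst gave at least 2. The 58 nuclei made up 0.1795% of the nuclei of that size, 58 of 3091 GABAergic nuclei and 58 of 1857 nuclei that met every criterion except the one on Sst. Those 1857 are called MGE-like here, after the medial ganglionic eminence, because Nxph1, Lhx6 and Sox6 mark the interneurons born there.

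Somatostatin interneurons are inhibitory neurons that release GABA together with the peptide somatostatin and mostly contact the dendrites of their targets. In the hippocampus they include the oriens-lacunosum moleculare cells, whose axons reach the outermost dendrites of pyramidal cells where entorhinal input arrives, and bistratified and long-range projecting cells. Gad1 and Gad2 encode the enzymes that make GABA, Slc17a7 encodes the vesicular glutamate transporter of excitatory neurons, and Adarb2 marks interneurons from the caudal ganglionic eminence (CGE).

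The nuclei came from 24 wells of a combinatorial-barcoding plate, each loaded with hippocampal nuclei of 1 perfused mouse, and were read out in 7 sublibraries that each held all wells. Wells fell into 4 groups of 6, with 3 female and 3 male wells each: Arctic mice drinking plain water (Arc-veh) or water with PMX205 (Arc-PMX), and wild-type mice drinking plain water (WT-veh) or water with PMX205 (WT-PMX). Arctic (Arctic48) mice carry a hemizygous human APP transgene with the Indiana, Swedish and Arctic mutations on a C57BL6/J background, and wild-type mice lacked it. PMX205, a cyclic peptide antagonist of the complement receptor C5aR1, was given at 20 µg/ml in drinking water for 12 weeks, and all mice were 10 months old at perfusion. In the deposited plate layout, water and PMX205 wells occupied different plate rows, and wild-type and Arctic wells different columns, so plate position and treatment, or plate position and genotype, cannot be told apart. The study's notes exclude 1 wild-type sample as genetically Arctic without naming a well, and all 12 wild-type wells were kept here.

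Depth set much of what could be seen. The 58 nuclei held 4717 to 40239 transcripts each, with a median of 16613, against 10765 in MGE-like nuclei without Sst, 10091 in CGE-like nuclei and 7411 over all 32312. All 58 had under 1% mitochondrial transcripts, and 2 had a Scrublet doublet score above 0.25, a level passed by 642 nuclei (1.99%) overall. No barcode was shared among the 58, although 6 of their barcodes recurred in another sublibrary, as did those of 4294 of all 32312 nuclei. Sst was sparse in these libraries: all nuclei in the size window together held 386 Sst transcripts, of which 294 were in MGE-like nuclei and 150 in the 58.

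The gate genes are given as a description, since they chose the nuclei. Sst gave 2 transcripts in 36 nuclei, 3 in 15, 4 in 4, 5 in 2 and 7 in 1. The median of Gad1 and Gad2 together was 9 transcripts and that of Nxph1, Lhx6 and Sox6 together 63.5, with a lowest value of 1. Slc17a7 was at 0 in all 58 and Adarb2 at 0 in 53, with at most 3 transcripts in any nucleus. Of the 5 marker genes of the cell type, Sst and Nxph1 were seen in 58 nuclei, Gad2 in 55, Gad1 in 50 and Lhx6, the transcription factor of MGE interneurons, in 36. Only Sst was required on its own, and the other 4 entered the rule in sums. Sst was seen in 0.22% of non-GABAergic nuclei (median 7002 transcripts) and 0.43% of CGE-like nuclei, and the source of these transcripts was not tested. Of 68 nuclei in the size window with at least 2 Sst transcripts, 7 missed on Gad1 and Gad2, 2 were GABAergic but not MGE-like, and 1 had too many Slc17a7 transcripts.

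Nuclei just inside and just outside the Sst threshold are given for Elfn1 and Grin3a, with no test. The 36 nuclei with exactly 2 Sst transcripts had 291 CPM of Elfn1 and 688 of Grin3a (transcripts summed over nuclei and scaled to a total of 1000000), and the 144 nuclei with 1 Sst transcript that otherwise met the rule had 310 and 621. In MGE-like nuclei without Sst the values were 104 and 193. Outside the size window, 271 larger barcodes held 9 Sst transcripts and 1 of them met the gene rule, and 30442 barcodes of 300 or more but under 2000 transcripts held 14 Sst transcripts and none met it.

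The Sst gene lies on chromosome 16 (GRCm38, 23889573 to 23890958, minus strand) and spans 1.4 kb. Its promoter is known for a cyclic AMP response element, through which neuronal activity and CREB drive the gene, and that stretch is shown because it is the best-known control site of the gene that defines these nuclei. Capitals mark the 8-base element in the RefSeq promoter at chr16:23890874-23890903, minus strand, GRCm38.p6. The span given above is that of GENCODE, which begins upstream of the RefSeq start, so the stretch lies inside that span and before the RefSeq start.
Sst promoter: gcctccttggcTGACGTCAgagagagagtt
The element TGACGTCA, which reads the same on both strands, starts 48 bases before the RefSeq start and occurs once in the 250 bases before it. It was found in 508 of 32851 RefSeq mouse promoters (1.55%) and in 0 of the 11 genes of the hippocampal somatostatin subtype list that had a promoter entry. A match of letters is a description, and no measurement of binding was made.

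Genes that mark dendrite-targeting somatostatin cells were seen in most of the 58 nuclei. Grin3a, which encodes the NMDA receptor subunit GluN3A, was detected in 55 nuclei (94.8%, exact 95% interval 85.6 to 98.9%), and Elfn1, a postsynaptic adhesion protein that recruits the presynaptic receptor mGluR7 onto synapses with these cells, in 49 (84.5%, 72.6 to 92.7%). All 49 nuclei with Elfn1 also held Grin3a. Satb1, a chromatin organiser needed for somatostatin cells to mature, was seen in 50, and Reln, a secreted matrix protein, in 43 (74.1%). These intervals cover counting error only. In non-GABAergic nuclei Grin3a was seen in 22.6%, Elfn1 in 6.20% and Satb1 in 27.2%.

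The shares partly follow depth. With each nucleus thinned to 2000 transcripts, Grin3a was seen in 72.4% of the 58 nuclei, 58.3% of nuclei with 1 Sst transcript, 25.3% of MGE-like nuclei without Sst and 17.1% of CGE-like nuclei. Elfn1 gave 41.4%, 44.4%, 14.4% and 10.6% in the same order. Crhbp, which encodes the binding protein of corticotropin-releasing hormone, was seen in 25 nuclei (43.1%) before thinning, but after it in 3.45% against 3.75% of MGE-like nuclei without Sst, so its share gives no order between them. Fitted over wells without a filter on low counts, Crhbp was called higher in the 58 nuclei.

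**Figure D1:**
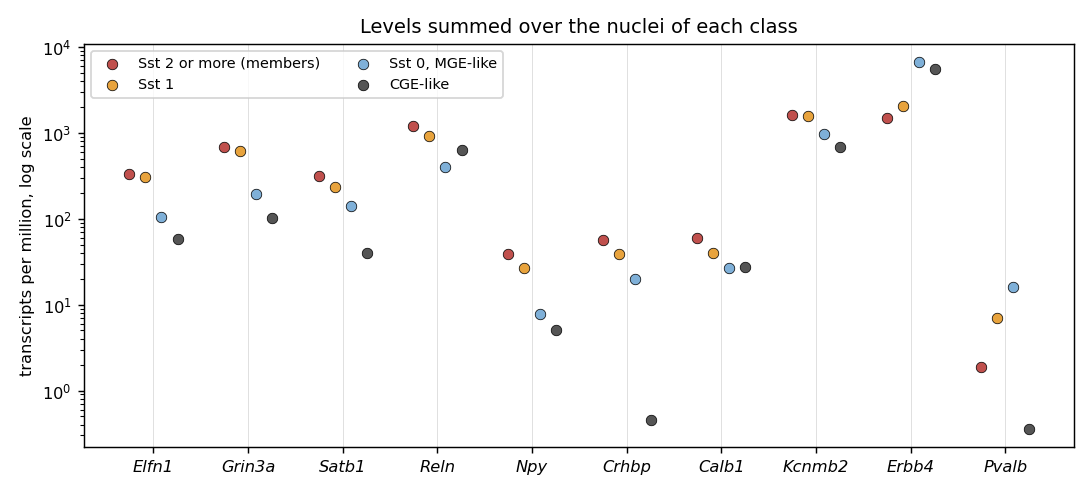
Level of 10 genes in CPM (log scale), summed over the 58 nuclei with 2 or more Sst transcripts, the 144 with 1, the 1655 MGE-like nuclei with none and the 926 CGE-like nuclei. Points are sums over nuclei without error bars; Elfn1 and Grin3a were close in the first 2 classes (328 and 310, 687 and 621) and lower in the others, and Erbb4 ran the opposite way (1482, 2035, 6609 and 5548). Levels of different genes are not on a per-length scale.

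Other subtype genes were seen in fewer of the 58 nuclei. Npy, which encodes neuropeptide Y, was seen in 12 nuclei (20.7%, 11.2 to 33.4%), all 12 with Grin3a, 11 with Elfn1 and 9 with Reln. The calcium-binding protein gene Calb1 was seen in 23, and all 23 held Elfn1. Oprd1, the delta opioid receptor, was seen in 28. After thinning, Npy was in 8.62% of the 58, 1.27% of MGE-like nuclei without Sst and 0.0342% of non-GABAergic nuclei. In that order Calb1 was in 15.5%, 5.44% and 5.60%, and Oprd1 in 15.5%, 9.18% and 2.08%. Nos1, nitric oxide synthase, marks long-range somatostatin cells together with Chodl. It was seen in 11 nuclei, but 1 of them held 98 of its 108 transcripts. After thinning Nos1 was in 3.45% of the 58, 10.0% of MGE-like nuclei without Sst and 7.88% of non-GABAergic nuclei. Its share was thus not higher in the 58 than in those classes. Chodl gave 1 transcript each in 3 nuclei, among them the one with 98 of Nos1. Pvalb, the parvalbumin gene of fast-spiking cells, gave 2 transcripts in all, in 2 nuclei, and Chrna2, a nicotinic receptor subunit of oriens-lacunosum moleculare cells, also 2 in 2. Pnoc was seen in 6 and Tac1 in 2.

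Reln varied more between nuclei than Grin3a or Elfn1. Its level per nucleus had a lower quartile of 6.21 CPM, a median of 305 and an upper quartile of 2456, while Grin3a ran from 289 at the lower quartile to 1019 at the upper. The 43 nuclei with Reln and the 15 without it had similar depth (median 16792 and 15886 transcripts). Elfn1 was at 334 CPM in the first and 306 in the second, Grin3a at 711 and 608, and Satb1 at 333 and 253. The 3 nuclei with Chodl all lacked Reln. Those of WT-veh F2 and WT-PMX M1 each held 2 Nxph1 transcripts and 0 of Lhx6, Sox6 and Nos1. Both are described below with Meis2, where their place in the class is said to rest on few transcripts. These are descriptions of nuclei, which are not replicates.

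**Figure D2:**
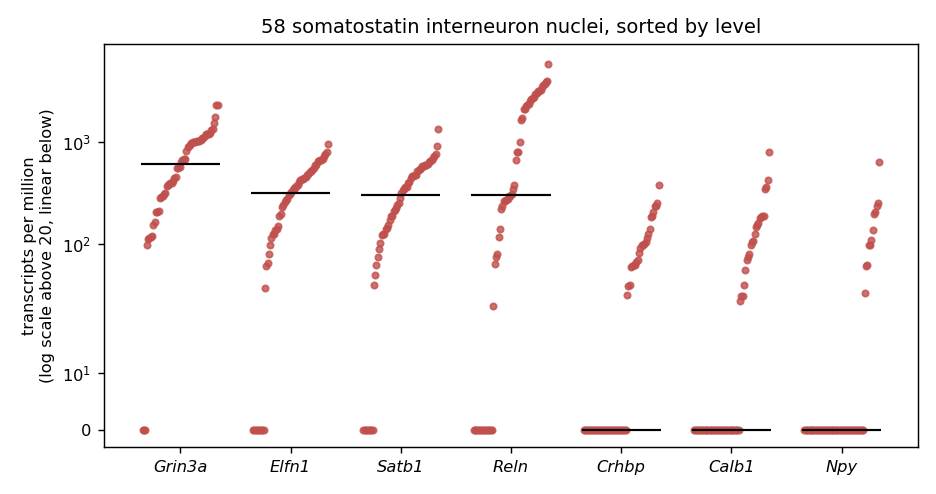
CPM of 7 genes in each of the 58 somatostatin interneuron nuclei (log scale above 20, linear below), each point a nucleus sorted by level within a gene, with black lines at the median. Grin3a was at 0 in 3 nuclei and Elfn1 in 9, Reln spread from 0 in 15 nuclei to a highest value of 5692, and Crhbp, Calb1 and Npy had a median of 0.

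Somatostatin is cut from a precursor by convertases and stored in dense-core vesicles, which also hold granins. Pam, the enzyme that amidates other peptides, was seen in 54 nuclei, carboxypeptidase E (Cpe) in 57 and the convertase chaperone gene Scg5 in 53. After thinning, Cpe was in 36.2% of the 58, 35.9% of MGE-like nuclei without Sst and 43.1% of non-GABAergic nuclei. In that order Scg5 gave 29.3%, 27.1% and 18.4%, and Pam 74.1%, 66.5% and 35.0%. Vgf, a granin family precursor, was seen in 26 nuclei at 55.1 CPM, against 17.8 CPM in MGE-like nuclei without Sst. All 14 genes of the neuropeptide processing list were detected in the 58 nuclei. Of the 13 other neuropeptides on the list, 8 were detected, and none was high enough to pass the low-count filter: Cort, the cortistatin gene closest to Sst, gave 1 transcript, Vip 1, and Cck and Penk none. Of the 5 somatostatin receptors, Sstr1 gave 6 transcripts in 4 nuclei, Sstr4 gave 2 and Sstr2 gave 1, and the others none.

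Markers of other cell types were summed as lists. The CGE list of 9 genes summed to 81.3 CPM, against 14136 in CGE-like nuclei, with Sncg, Cck and Calb2 at 0. Adarb2, a gene of the rule, made up 7.47 and 13621 CPM of these, so that contrast was set by the rule. Astrocyte markers summed to 122 CPM (1371 in non-GABAergic nuclei; Aqp4, Gja1 and Aldoc at 0), oligodendrocyte markers to 44.8 (698; Mog, Mag and Mal at 0), oligodendrocyte precursor markers to 944 (1070; Cspg4 and C1ql1 at 0) and microglial markers to 56.0 (129; C1qa, C1qb, C1qc, Inpp5d and Ctss at 0). The oligodendrocyte precursor sum was 710 CPM in CGE-like nuclei. Of that list, Tnr was seen after thinning in 63.8% of the 58 and 74.0% of MGE-like nuclei without Sst. It was in 54.6% of CGE-like and 67.2% of non-GABAergic nuclei. Vcan was then in 5.17% of the 58 and Pdgfra in 0%, against 5.29% and 2.55% of non-GABAergic nuclei. The 12 excitatory markers summed to 172 CPM, against 434 in non-GABAergic nuclei, 126 in MGE-like nuclei without Sst and 137 in CGE-like nuclei, with 6 of them at 0, among these Slc17a6, Neurod2 and Slc17a7, which the rule limited. Mpped1 alone made up 159 CPM of the 172, and 119, 102 and 84.4 CPM of the other sums in that order, and none of the other 5 markers detected in the 58 nuclei exceeded 4.67 CPM. In the 4 groups the excitatory sum ran from 132 to 194 CPM, the astrocyte sum from 47.4 to 171, and 8 transcripts linked to ribosomal RNA from 6142 (Arc-PMX) to 9675 (Arc-veh). Their part in the results that follow was not tested.

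The first comparison asked what else set these nuclei apart from other interneurons of the same wells. Against MGE-like nuclei without Sst, summed per well over the 18 wells that held at least 1 of the 58, 3160 genes were tested with the well as a block (edgeR quasi-likelihood test, Benjamini-Hochberg adjusted p under 0.05). Of these, 65 were higher (2.06%) and 216 lower (6.84%) in somatostatin nuclei, and the median log2 change over all tested genes was -0.08. With the scaling set without the low-count filter, the same 3160 genes shifted by a median of -0.43, to a median of -0.51, and 25 of them were higher and 837 lower, so the changes given here are relative to the median with the filter. The 8 genes of the rule were left out. The nuclei compared were divided by Sst in the same data, so the test is on the other genes of nuclei that differ in Sst and also in depth. Nuclei with no Sst transcript counted, called Sst-negative below, can include somatostatin cells whose Sst was missed.

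Synpr, which encodes the synaptic vesicle protein synaptoporin, was among the largest increases. Its well values ran from 196 through a median of 1403 to 1995 CPM in somatostatin nuclei, and from 169 through 307 to 517 in the Sst-negative nuclei, and it was higher in 16 of 18 wells (log2 fold change 1.88, SE 0.23, adjusted p 1.35e-06). The 2 wells that broke the order each held 1 somatostatin nucleus (WT-PMX F1 and F3, at 196 and 212 CPM). Cdh9, a type II cadherin, was higher in 16 of 18 wells (log2 1.80, SE 0.25), with 554 against 162 CPM over all nuclei. Trpc6, a cation channel, was also higher in 16 (log2 1.62, SE 0.27).

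Elfn1 rose by 1.54 on the log2 scale (SE 0.23, adjusted p 3.10e-05, higher in 15 of 18 wells) and Grin3a by 1.52 (SE 0.26, adjusted p 0.000134, 15 of 18). Elfn1 was at 0 in 3 wells, each with 1 somatostatin nucleus (WT-PMX F1, WT-PMX M1 and Arc-PMX M1). Chrna7, the alpha7 nicotinic acetylcholine receptor, rose by 1.55 (SE 0.25, 13 of 18 wells), and Lypd6b, of a protein family that modulates nicotinic receptors, by 1.61 (SE 0.25, 15 of 18). Eya1, a transcriptional coactivator, rose by 1.55 (SE 0.32, 11 of 18). The other 2 of the 10 largest were non-coding: Gm28175, an intergenic RNA on chromosome 1 (log2 2.22, SE 0.27), and Gm16083, annotated as antisense on the same chromosome (log2 1.75, SE 0.23). Gm16083 overlaps the end of Cd55 on the opposite strand, and whether the counting used strand is not given in the sources used here.

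The largest decreases were led by Tll1, a tolloid-like metalloprotease gene. It gave 5 transcripts in the 58 nuclei (4.67 CPM, at 0 in 16 of 18 wells) against 142 CPM in Sst-negative nuclei, and was lower in all 18 wells (log2 -4.85, SE 0.42, adjusted p 8.01e-09). Pde11a, a cyclic nucleotide phosphodiesterase, fell by 4.04 on the log2 scale (SE 0.43, 14.0 against 228 CPM), Mctp2 by 3.95 (SE 0.47), Cemip, a hyaluronan-degrading factor, by 3.18 (SE 0.35), Cacna2d1, a calcium channel subunit, by 3.01 (SE 0.43), and the sialyltransferase gene St6gal1 by 3.00 (SE 0.42). Gfra1, a receptor of GDNF (log2 -2.96, SE 0.39), and the zinc-finger genes Zbtb7c (log2 -2.95, SE 0.37) and Zfp804b (log2 -2.87, SE 0.54) completed the 10.

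Erbb4, the neuregulin receptor of many cortical and hippocampal interneurons, fell by 3.27 (SE 0.42, adjusted p 3.29e-06) and was lower in 17 of 18 wells, with 1482 against 6609 CPM over all nuclei. Its well values ran from 0 through 628 to 13710 CPM in somatostatin nuclei and from 4553 through 6490 to 12627 in the Sst-negative ones. The single nucleus of Arc-PMX M1 set the highest value. Among the 58, 15 nuclei had no Erbb4 transcript, 5 nuclei held 63.1% of all of them, and 6 nuclei in 5 wells were at 5000 CPM or more, a level chosen after the values were seen. Those 6 held 86.8 CPM of Elfn1 against 357 in the other 52, and 3 of the 6 held Elfn1. Reln was also lower in the 6, at 330 against 1304 CPM. Grin3a (634 against 694) and Synpr (1189 against 1282) were close, and Satb1 (564 against 285) and Cdh9 (1016 against 498) were higher.

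**Figure D3:**
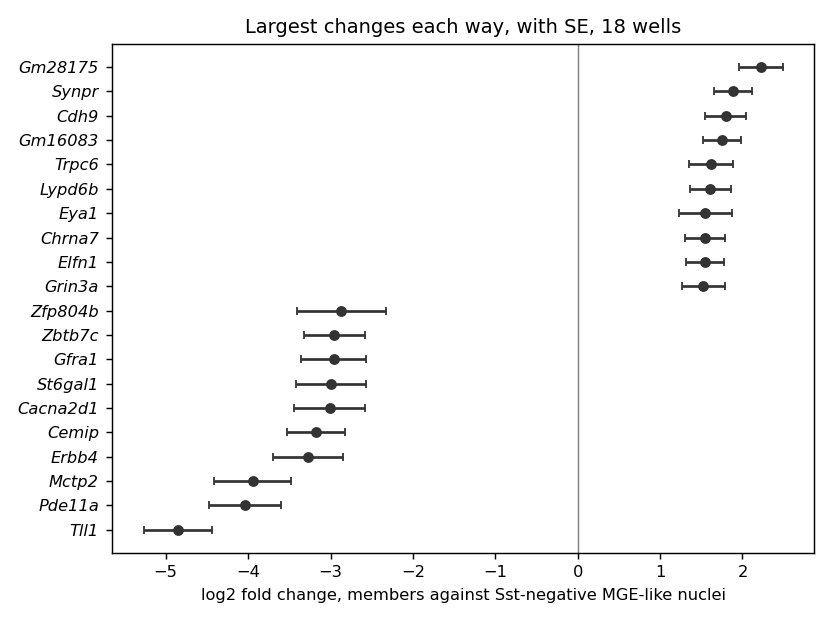
Log2 fold change (x axis) with its SE of the 10 genes with the largest change in each direction between somatostatin interneuron nuclei and MGE-like nuclei without Sst, fitted over 18 wells with the well as a block. The increases lay between 1.52 and 2.22 and the decreases between -2.87 and -4.85.

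The gene lists, chosen with earlier results of these data known, gave the following counts beside the median of -0.08 over all tested genes. Of the hippocampal somatostatin subtype genes 4 were tested and 2 rose (Elfn1 and Grin3a), with a median of 1.29. Of 5 transcription factors tested, Satb1 rose (log2 1.02, SE 0.24, 15 of 18 wells), a call lost without the filter (adjusted p 0.125 in edgeR). Of 12 GABA receptor genes tested, none rose and 5 fell, with a median of -0.40 (9 fell without the filter). Among them Gabrg3 fell by 2.07 (SE 0.31, 749 against 2634 CPM), Gabra4 by 0.99 (SE 0.25) and Gabrb2 by 0.70 (SE 0.21). These encode subunits of the ionotropic GABA-A receptor. In GABA synthesis and transport, 2 of 4 tested genes fell, among them Abat, the GABA-degrading enzyme, by 0.55 (SE 0.16).

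Of 19 glutamate receptor genes tested, 4 rose and none fell, with a median of -0.10. Without the filter 1 of them, Grin3a, rose and 8 fell, with a median of -0.55. Beside Grin3a these included the kainate receptor subunit Grik3 (log2 0.88, SE 0.17, 16 of 18) and Grm7, the gene of mGluR7 (log2 0.59, SE 0.19, adjusted p 0.0490, 17 of 18). Grm7 lost its call in 16 of the 25 other settings run. Of 28 voltage-gated channel genes tested, 3 rose and 6 fell, against 1 (Cacna2d3) and 14 without the filter. The T-type calcium channel gene Cacna1g rose by 0.80 (SE 0.16), the calcium channel subunit gene Cacna2d3 by 1.34 (SE 0.39, 3020 against 782 CPM) and the M-current gene Kcnq3 by 0.67 (SE 0.20). The potassium channel genes Kcnh7 and Kcnq5 fell by 1.84 and 1.01, Kcnc1, of fast-spiking cells, by 0.65, and the calcium channel genes Cacna1e and Cacna1d by 1.72 and 0.52, beside Cacna2d1.

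Of 20 synaptic adhesion genes tested, 1 rose (Elfn1) and 8 fell, with a median of -0.39, and 12 fell without the filter. Beside Erbb4, Ptprd fell by 1.93 (SE 0.35), Cntnap5b by 1.66 (SE 0.30), Nlgn1, which encodes neuroligin 1, showed a log2 change of -1.56 (SE 0.37), Cntnap4 of -1.35 (SE 0.30), Cntnap5a of -0.88, Cntnap2 of -0.81 and Il1rapl1 of -0.74. Nlgn1 was uneven among the 58: its quartiles were 69.1 and 2813 CPM and 5 nuclei held 50.9% of its transcripts. Counts of the remaining lists stand beside 2.06% higher and 6.84% lower over all tested genes. Among them, 1 of 3 acetylcholine receptor genes rose (Chrna7), 1 of 15 presynaptic release genes fell (Syt7, log2 -0.63), 1 of 5 neuropeptide processing genes fell (Cadps, log2 -0.45, lost in 21 of the 25 other settings), and 2 of 4 complement regulators tested fell (Csmd3, log2 -1.33, and Susd4, log2 -0.67). No call was made among 6 genes of the amyloid precursor pathway, 2 of the unfolded protein and stress list or the 1 activity-induced gene tested. Without the filter 5 of the 15 presynaptic release genes, 2 of the 5 neuropeptide processing genes, 4 of the 4 complement regulators and 3 of the 6 amyloid pathway genes were called lower, beside 837 of the 3160 genes. The mitochondrial ribosomal RNAs mt-Rnr1 and mt-Rnr2 fell by 0.84 and 0.82, and Slc4a4, an astrocyte marker, by 1.98.

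Some list genes were too low for the filter and were tested only without it. Genes called higher among them are given here, with list counts both ways at the end (edgeR, relative to a median of -0.48 over 25043 genes). Fos, an immediate early gene, gave 15 transcripts in 8 of the 58 nuclei, 14.0 CPM against 1.32 in nuclei with 1 Sst transcript and 1.36 in MGE-like nuclei without Sst (log2 3.25, SE 0.55, adjusted p 1.71e-05, higher in 7 of 18 wells). Egr3 gave 15 transcripts in 4 nuclei (log2 2.11, SE 0.57, adjusted p 0.0131) and Nr4a1 gave 37 in 25 (log2 0.91, SE 0.29, adjusted p 0.0394). Of the 21 activity-induced genes tested in this way these 3 were higher and 1, Sik1, was lower, with a median of 0.75. Npy was higher (log2 1.72, SE 0.37, adjusted p 0.000935, 8 of 18 wells), the only call among 13 neuropeptides, as were Crhbp (log2 1.09, SE 0.30, adjusted p 0.0134) and Vgf (log2 1.32, SE 0.28, adjusted p 0.000825). Of the Npy transcripts of the 58, 1 nucleus held 38.1%, with 16, and 5 nuclei held 78.6%. That nucleus, of Arc-PMX M2, was the one with 98 of Nos1. Cd55, a complement regulator, gave 20 transcripts in 11 nuclei and was higher (log2 2.23, SE 0.42, adjusted p 0.000114), against 5 genes of its list that were lower. Since Gm16083 overlaps it, reads of the pair may not be told apart. Npas1, a transcription factor of interneurons, was higher by 1.75 (SE 0.30), and Unc13c, a presynaptic priming factor, by 1.78 (SE 0.39, adjusted p 0.00104). Fos, Egr3 and Cd55 gave 20 transcripts or fewer each in the 58 nuclei. An adjusted p of this fit does not show how evenly the transcripts of a gene lay over nuclei. Of the 16 hippocampal subtype genes tested in this fit, 3 were higher and 3 lower, with a median of -0.72. Of 21 presynaptic release genes 1 was higher and 6 lower. Neuropeptide processing genes gave 2 and 2 of 14, and transcription factors 1 and 1 of 15, beside 94 and 1462 of all 25043 genes.

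Against CGE-like nuclei of the same 18 wells, 2634 genes were tested, of which 190 were higher (7.21%) and 347 lower (13.2%) in somatostatin nuclei, with a median of -0.04. Without the filter the same genes shifted by a median of -0.40, to a median of -0.44, with 57 higher and 728 lower. Satb1 rose by 3.05 (SE 0.23, adjusted p 2.31e-10, 315 against 39.8 CPM) and Utrn, which encodes the cytoskeletal protein utrophin, by 3.18 (SE 0.34, 849 against 71.7 CPM). Trhde, a peptidase that degrades thyrotropin-releasing hormone, rose by 2.76 (SE 0.30), Grin3a by 2.58 (SE 0.30), Elfn1 by 2.43 (SE 0.24), Trpc6 by 2.41, Il1rapl2 by 2.28 (SE 0.52), Kctd8, an auxiliary subunit of GABA-B receptors, by 2.13 and Man1a by 2.11. Grik3 was higher in all 18 wells (log2 2.06, SE 0.19), from 115 through 534 to 1908 CPM against 82.1 through 140 to 295.

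Frem1, a matrix protein gene, gave 2 transcripts, 1.87 against 262 CPM, and was lower in all 18 wells (log2 -6.78, SE 0.39, adjusted p 9.08e-13). The ratio of CGE-like to somatostatin CPM was 140 (38.8 to 1160), an exact 95% counting interval. Pde5a, a cyclic GMP phosphodiesterase (log2 -5.50), and the growth factor receptor Egfr (log2 -5.49) gave 3 transcripts each, with ratios of 50.9 (17.4 to 247) and 51.7 (17.6 to 251). The other large decreases were Cadps2 (log2 -4.93), Rgs12 (log2 -4.82), Pdzrn3 (log2 -4.46), Kcnip4, a potassium channel partner (log2 -4.10), Prr16 (log2 -4.01), Pde7b (log2 -3.74) and the transcription factor Nfib (log2 -3.73). Kcnip4 was uneven in the 58 nuclei: 5 of them held 82.1% of its transcripts. Cnr1, the cannabinoid receptor of many CGE interneurons, fell by 2.57 (SE 0.26, 69.1 against 410 CPM).

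Of 19 glutamate receptor genes tested against CGE-like nuclei, 8 rose and 2 fell, with a median of 0.49. Without the filter 4 of the 19 rose and 4 fell, with a median of 0.05, and Gria1, Grm5, Grm7 and Grm8 lost their calls (adjusted p 0.200, 0.513, 0.656 and 0.384 in edgeR). With the filter, Gria3 rose by 1.64 (SE 0.25), Gria1 by 0.87 (SE 0.19, 18 of 18 wells), Grm8 by 0.81, Grm5 by 0.73 (SE 0.16) and Grm7 by 0.67, beside Grik3 and Grin3a, while Grid1 and Grik2 fell by 0.80 and 0.64. Of 12 GABA receptor genes, Gabra3 rose (log2 0.95) and 6 fell, among them Gabra4 by 1.14. Of 27 channel genes 6 rose, including Cacna2d2 (log2 1.76), the BK channel subunit Kcnmb2 (log2 0.99) and Cacna1a (log2 0.78, 18 of 18 wells), and 5 fell, including Cacna2d1 (log2 -3.36) and Kcnq5 (log2 -2.46). Of 19 adhesion genes 3 rose, including Ptprt (log2 1.80), and 7 fell, including Erbb4 by 2.96. Of 6 transcription factors 3 fell, including Zbtb20 by 2.24. Of 6 neuropeptide processing genes Cpe rose (log2 0.62), and Pcsk2 fell by 1.23 beside Cadps2. Of the other lists, 3 of 14 presynaptic release genes fell (Rims1, Syn2 and Cplx2), 3 of 4 complement regulators (Csmd3, Csmd2 and Susd4), 1 of 5 amyloid pathway genes (App, log2 -0.47), 1 of 3 acetylcholine receptor genes (Chrm2, log2 -1.52), the 1 stress gene tested (Atf6), both mitochondrial ribosomal RNAs and 2 astrocyte markers (Slc1a2 and Slc4a4). Mpped1, on the excitatory list, rose (log2 0.97). Without the filter Gabra3, Kcnmb2, Cacna1a, Cpe and Mpped1 also lost their calls. The counts then were 2 higher and 11 lower of the 27 channel genes, none higher and 10 lower of the 12 GABA receptor genes, 3 and 11 of the 19 adhesion genes, none and 8 of the 14 presynaptic release genes, none and 4 of the 5 amyloid pathway genes and none and 4 of the 4 complement regulators, beside 57 and 728 of the 2634 genes. Among list genes that only the fit without the filter tested, Fos (log2 2.94), Egr3 (log2 1.76), Npy (log2 2.15), Cd55 (log2 2.20), Crhbp (log2 5.67), Vgf (log2 1.88), Calb1 (log2 0.85), Oprd1 (log2 0.98) and Kcnh5 (log2 1.06) were among those higher than in CGE-like nuclei. That fit called 2 higher and 2 lower of 21 activity-induced genes and 1 and 3 of 12 neuropeptides. Hippocampal subtype genes gave 5 and 3 of 16, and neuropeptide processing genes 2 and 3 of 14. Channel genes gave 3 and 14 of 38 and complement regulators 1 and 6 of 19, beside 217 and 1629 of all 23210 genes.

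The second comparison asked whether genotype or PMX205 went with the number of somatostatin nuclei. In the wild-type groups, WT-veh held 12 (F2 with 5, M1 with 2, M2 with 5) and WT-PMX 15 (F1 with 1, F2 with 3, F3 with 1, M1 with 1, M2 with 9). In the Arctic groups, Arc-veh held 16 (F1 with 1, F2 with 3, F3 with 1, M1 with 2, M2 with 6, M3 with 3) and Arc-PMX 15 (F1 with 6, F2 with 4, M1 with 1, M2 with 4). Every Arc-veh well held at least 1, and 6 wells of the other groups held none. As shares of the nuclei of each group these were 0.135% (exact 95% interval 0.0697 to 0.236%), 0.182% (0.102 to 0.300%), 0.209% (0.120 to 0.340%) and 0.199% (0.112 to 0.329%). These intervals pool the nuclei of 6 wells and cover counting error only, not the spread between wells. A well with none and 1300 nuclei, such as WT-veh F1, still allows a share of up to 0.283% (exact 95% upper bound).

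The share of MGE-like nuclei that met the Sst threshold was 3.91% ± 2.36 in Arc-veh and 1.53% ± 1.70 in WT-veh (SD, n = 6 wells each, exact permutation test, two-sided, p 0.0758, adjusted p 0.455 over 12 tests). In Arc-PMX it was 2.77% ± 2.89 (exact permutation test against Arc-veh, p 0.470) and in WT-PMX 2.84% ± 2.74 (exact permutation test against WT-veh, p 0.370). The groups overlapped, and none of the 12 exact tests of shares and of median transcripts passed, where the smallest p that 6 wells against 6 allow is 0.00216. The 3 exact tests of median transcripts, over the wells that held such nuclei, could reach 0.0238, 0.00952 and 0.0357 at the lowest. As shares of GABAergic nuclei, Arc-veh had 2.33% ± 1.34 and WT-veh 0.963% ± 1.07. Fewer nuclei of a type, less Sst RNA per nucleus and lower depth cannot be told apart by this gate, which counts transcripts. Depth differed between groups. The median transcripts per MGE-like nucleus of a well averaged 8839 in WT-veh, 11215 in WT-PMX, 12763 in Arc-veh and 12308 in Arc-PMX. The WT-veh wells without somatostatin nuclei, F1, F3 and M3, had medians of 6891, 7093 and 5709. The part of depth in the shares was not tested.

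**Figure D4:**
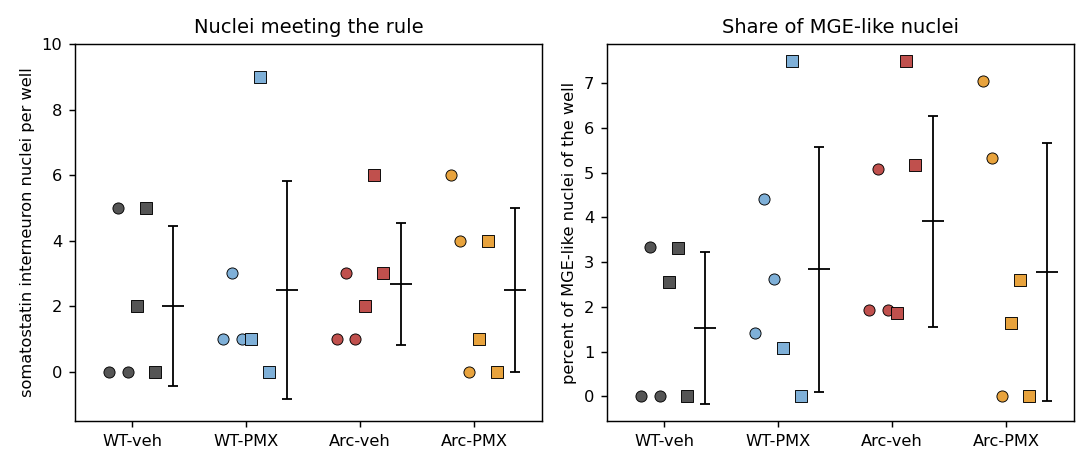
Left, somatostatin interneuron nuclei per well in the 4 groups; right, their share in percent of the MGE-like nuclei of the well. Circles are female and squares male wells, and the bars to the right of each group give the mean and SD of 6 wells. The 4 groups overlap in both panels, and WT-PMX M2 holds the highest number, 9.

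Sst itself was compared in all MGE-like nuclei, since these were chosen without it. Its level ran from 0 through a median of 10.5 to 13.8 CPM over WT-veh wells, from 5.44 through 15.8 to 25.1 over WT-PMX wells, from 8.72 through 13.8 to 16.8 over Arc-veh wells and from 0.875 through 10.1 to 20.8 over Arc-PMX wells. The 4 ranges overlapped. WT-veh F3 had no Sst transcript in its 40 MGE-like nuclei. In the edgeR fit the log2 change from WT-veh to Arc-veh was 0.44 (SE 0.40, 95% interval -0.37 to 1.24), from Arc-veh to Arc-PMX -0.47 (SE 0.39, -1.25 to 0.32), and from WT-veh to WT-PMX 0.41 (SE 0.41, -0.41 to 1.22). The PMX205 effects in Arctic and wild-type mice differed by -0.87 (SE 0.57, -2.01 to 0.26), and female exceeded male wells by 0.30 (SE 0.28). None passed, with adjusted p of 0.808 or more, and the intervals leave changes of about 1 log2 unit undetectable at this depth.

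**Figure D5:**
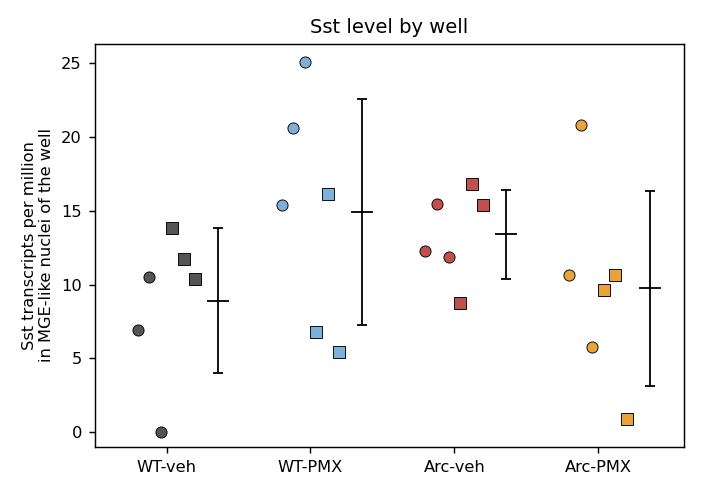
Sst CPM in all MGE-like nuclei of each well, by group, with circles for female and squares for male wells and the mean and SD of 6 wells beside each group. Values lie between 0 and 25.1, and the 4 groups overlap.

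Over all genes of these MGE-like nuclei (8416 tested), edgeR called none for Arc-veh against WT-veh, Arc-PMX against Arc-veh, WT-PMX against WT-veh or the difference between the PMX205 effects (0% each), with 327, 556, 216 and 303 genes at an unadjusted p under 0.05. Arctic against wild-type averaged over treatments called 1 gene (0.0119%), Alkal2, a ligand of the receptor tyrosine kinase Alk, which fell by 1.84 (SE 0.264, adjusted p 0.00142). Female against male called 6 (0.0713%): Xist, the Y-linked Kdm5d, Uty, Ddx3y and Eif2s3y, and Gm26992.

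The third comparison took the 58 nuclei alone. The 18 wells with at least 1 of them gave 6 Arc-veh, 4 Arc-PMX, 3 WT-veh and 5 WT-PMX values, and 6 of the 18 rested on a single nucleus. With 1046 genes tested, edgeR called none for Arc-veh against WT-veh, Arc-PMX against Arc-veh, WT-PMX against WT-veh, the difference between the PMX205 effects, or Arctic against wild-type (0% each). At an unadjusted p under 0.05 there were 30, 27, 21, 19 and 60 genes. Without the low-count filter, with 15732 genes tested, edgeR called 12, 27, 2, 5 and 22 in that order. DESeq2 called 1 gene each for Arc-veh against WT-veh, for the difference between the effects and for Arctic against wild-type, and none in the other 2. Female against male called Xist alone (0.0956%), which was higher by 6.29 (SE 0.50, adjusted p 1.91e-07). Xist gave 281 transcripts in all 9 female wells and 4 in 3 of the 9 male wells, and Y-linked genes 192 in 8 of the male wells and 0 in the female wells, so the wells followed their sex labels.

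Elmo1, which encodes a partner of the Rac activator Dock1, had the smallest p for Arc-veh against WT-veh and for the difference between the PMX205 effects, and did not pass in edgeR with the low-count filter. It was at 488, 480 and 224 CPM in the WT-veh wells (F2, M1, M2) and at 97.9, 123, 212, 54.9 and 133 in the WT-PMX wells (F1, F2, F3, M1, M2). Over the 6 Arc-veh wells it ran from 0 through 50.7 to 190, and in the Arc-PMX wells (F1, F2, M1, M2) it was at 226, 209, 0 and 498. All 3 WT-veh wells lay above every Arc-veh and every WT-PMX well, and Arc-PMX overlapped with all other groups. The closest values were 224 CPM in WT-veh M2, from 13 transcripts, and 212 CPM in WT-PMX F3, from 1 transcript in 1 nucleus. Since Elmo1 was picked by its p, this order of wells adds no support. The log2 change from WT-veh to Arc-veh was -2.72 (SE 0.61, adjusted p 0.296 in edgeR and 0.0361 in DESeq2), from Arc-veh to Arc-PMX 2.17 (SE 0.59, adjusted p 0.465 in edgeR), and from WT-veh to WT-PMX -1.79 (SE 0.60). The PMX205 effects differed by 3.96 (SE 0.84, adjusted p 0.173 in edgeR and 0.0147 in DESeq2), and without Arc-PMX M1, a well with 1 nucleus, edgeR also called that difference (adjusted p 0.0344). Without the filter edgeR called Elmo1 for that difference (log2 4.30, adjusted p 0.0155) and for Arc-veh against WT-veh (adjusted p 0.0496). The contrasts share their control wells.

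Fam19a1, a secreted chemokine-like protein gene, and the transcription factor gene Meis2 had the smallest p for lower levels in Arctic wells, and neither passed in edgeR with the filter (log2 -5.75, SE 1.34, adjusted p 0.443, and -5.03, SE 1.32, adjusted p 0.643). DESeq2 called Fam19a1 (adjusted p 0.0162), and edgeR without the filter called Fam19a1 and Meis2 (adjusted p 3.10e-15 and 3.66e-10). Both values came from few nuclei: 5 of the 58 held 97.0% of Fam19a1 and 99.5% of Meis2 transcripts, and the same 5 nuclei had at least 5 of each. They were 1 nucleus each of WT-veh F2, WT-veh M2, WT-PMX F1, WT-PMX M1 and Arc-PMX M2, with 73, 29, 43, 23 and 15 Meis2 transcripts. These 5 nuclei held 1, 0, 0, 0 and 0 Elfn1 and 3, 1, 0, 3 and 0 Grin3a transcripts, at 2 to 4 Sst transcripts each, and were singled out after their values were seen. They held 2, 1, 2, 2 and 4 Nxph1 transcripts, 0, 0, 1, 0 and 0 of Sox6 and none of Lhx6. Their place in the class rests on these few transcripts. The Arc-PMX M2 nucleus had a doublet score of 0.336, and WT-PMX F1 and M1 held no other nucleus of the 58. Phactr1, next by p for lower levels in Arctic wells (log2 -1.96, SE 0.57), gave 279, 70, 137, 124 and 164 transcripts in the 5 nuclei.

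Other genes with the smallest p likewise did not pass with the filter. Without it edgeR called Kcnip4, Fat3 and AY036118 of those named here for Arc-PMX against Arc-veh (adjusted p 0.00146, 0.0127 and 0.00399). In the same fit edgeR called Gm28928 for WT-PMX against WT-veh (0.00323), and Kcnip4, Inpp4b and Cpne4 for the difference of the effects (0.0135, 0.00215 and 0.0135). Khdrbs2 and Phactr1 were called there for Arctic against wild-type (0.00609 and 0.0488), and Fam19a1 and Meis2 for Arc-veh against WT-veh (2.6e-10 and 3.43e-07). Of Kcnip4 transcripts 82.1% were in 5 of the 58 nuclei. With Sst of 1 or more, the Kcnip4 log2 change for Arc-PMX against Arc-veh turned to -0.082. For Arc-veh against WT-veh the genes with the smallest p under the filter were AY036118, Khdrbs2 and Adcy8 upward, and Fam19a1 and Meis2 downward beside Elmo1. AY036118, on the list of transcripts linked to ribosomal RNA, was at 14149 CPM in Arc-veh M1 and 4435 in Arc-veh F3, against 110 to 469 in the other 16 wells, so its log2 change of 3.42 (SE 1.18) came from 2 wells. For Arc-PMX against Arc-veh they were Fat3 (log2 2.65, SE 0.66), Kcnip4 (2.95, SE 0.80) and Elmo1 upward, and Dcx (-1.73, SE 0.51), AY036118 and Cit (-1.37, SE 0.45) downward. For WT-PMX against WT-veh they were Bcl11a, 5730522E02Rik and 2210408I21Rik upward, and Gm28928, Inpp4b and Elmo1 downward. For the difference between the PMX205 effects they were Elmo1, Inpp4b (4.93, SE 1.24) and Cpne4 upward, and Clk1, 5730522E02Rik and AY036118 downward. Khdrbs2, Alk and Nell1 led the upward side of Arctic against wild-type, with Alk at 1.65 (SE 0.49), and beside Xist the sexes were led by Unc13a and Kif26b in females and Sgip1, Csmd2 and Rock2 in males.

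With the low-count filter no gene list held a gene that edgeR called in any contrast between groups. For Arc-veh against WT-veh the 18 glutamate receptor genes tested had a median log2 change of -0.06, the 7 GABA receptor genes 0.04, the 21 channel genes -0.08 and the 18 adhesion genes 0.20, beside -0.03 over all 1046. For Arc-PMX against Arc-veh the medians were -0.20, 0.31, 0.01 and 0.08, beside 0.02. App, the gene whose human form the transgene carries, was seen in all 58 nuclei, at 583 ± 276 CPM in 10 Arctic wells and 575 ± 136 in 8 wild-type wells (SD), and its log2 change between genotypes was 0.01 (SE 0.26, adjusted p 0.997 in edgeR). Whether transgene transcripts were counted under the mouse gene is not given in the sources used here.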

How the data were processed

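Hippocampal nuclei were profiled with a Parse Evercode (Split-seq) kit, and the well of the first barcoding round gave the sample. Per the study's methods the authors made the deposited files with the split-pipe pipeline on mm10 (version not given in the sources used here). The 7 sublibraries are deposited as unfiltered raw transcript counts of each gene in each barcode, with total transcript and gene counts per barcode; genotype, treatment and sex of each well came from the deposited sheet. The members and gene lists were chosen with earlier results of these data known, the lists partly from that earlier work.

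The 24 single-nucleus wells gave 32312 nuclei of at least 2000 and under 50000 transcripts. Counts were summed per well and class, filtered with filterByExpr, TMM-normalised and tested with edgeR 4.0.16 quasi-likelihood tests in R 4.3.3 (Benjamini-Hochberg, 0.05), with sex as a covariate between groups and the well as a block between classes. A minimum of 10 nuclei per well had been planned, but no well held more than 9, so wells with at least 1 entered. Shares were compared by exact permutation tests over wells. Each well held nuclei of 1 mouse, and p-values measure the spread between wells. DESeq2 1.42.0, RLE factors, no low-count filter, other gates, thinning to 2000 transcripts, doublet removal and leaving out wells or sublibraries were alternatives. Nuclei were not removed as doublets in the values reported. Named genes were, per contrast between groups, those called or else the 3 smallest p per direction, per class comparison the 10 largest changes per direction with mean log2 CPM of at least 5, and called list genes. On simulated counts with 1 fixed spread, every changed gene that was called had the sign put in. That check does not measure error rates in these data, where single nuclei can carry most transcripts of a gene. Coordinates are from GENCODE vM21 and promoter sequence from RefSeq. Well numbers shared between groups did not pair wells. The single-cell wells were not used beyond a search for Sst. Results of some genes on the lists are not reported here, although the counts over each list include them.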

Additional observations from a re-analysis of the deposited data

Results flagged for a closer look

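WT-PMX M2 held 9 somatostatin interneuron nuclei, far from the 0 to 3 of the other 5 wells of its group, and that gap was large for a group of 6. Chance alone gives such a gap in about 1 group of 20, and 27 groups were looked at over all measures, of which this was the only one with a gap of that size. The shares of the same well did not stand apart. The well also held the most nuclei of its group, 2144.

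App differed in its Arctic excess between cell classes, a comparison added after the data were seen. In nuclei with at least 2 Slc17a7 transcripts App was at 675 ± 88.7 CPM in 12 Arctic wells and 524 ± 39.0 in 12 wild-type wells (SD, log2 difference 0.36, two-sided permutation test with 100000 draws, p 2e-05, the smallest they can give, adjusted p 8e-05 over 4 tests), and 8 Arctic wells lay above every wild-type well. In MGE-like nuclei, which include the somatostatin nuclei, it was at 615 ± 48.9 and 582 ± 53.3 CPM (log2 0.08, permutation p 0.124, adjusted p 0.141), and in CGE-like nuclei the log2 difference was 0.10 (permutation p 0.141). The log2 difference in MGE-like nuclei was smaller than in Slc17a7 nuclei by 0.28 (-0.28, permutation p 4e-05, adjusted p 8e-05). In the somatostatin nuclei alone the 2 genotypes overlapped, from 222 to 1267 CPM in Arctic and from 429 to 821 in wild-type wells.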

How the results depend on the processing

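Against Sst-negative MGE-like nuclei the 281 calls (65 higher, 216 lower) became 1556 without the low-count filter (94, 1462), 144 with nuclei thinned to 2000 transcripts (33, 111; 762 genes tested) and 178 with Sst of 3 or more (36, 142), and ran from 232 to 327 when each well was left out. Against CGE-like nuclei the 537 calls (190, 347) became 1846 (217, 1629), 142 (53, 89; 387 tested) and 301 (78, 223), and 446 to 588. The 10 largest changes per direction in both comparisons were called in every setting in which they were tested. Between groups, in the order Arc-veh against WT-veh, Arc-PMX against Arc-veh, WT-PMX against WT-veh, difference of effects, Arctic against wild-type, female against male, calls without the filter were 12, 27, 2, 5, 22 and 15 (15732 tested). DESeq2 gave 1 for Arc-veh against WT-veh, the difference of effects and Arctic against wild-type. Sst of 1 or more gave 1 for Arc-PMX against Arc-veh, Nos1 (adjusted p 3.24e-05 in edgeR), and 3 in the last, and with at least 10 nuclei per well 1 and 4. Leaving out wells or sublibraries gave 0 to 1 for the difference of effects (Elmo1), 1 to 2 for sex (Ncam2, without Arc-PMX F1, adjusted p 0.0482 in edgeR) and 0 for the rest. The cause of these shifts was not tested, except that thinning and stricter gates test fewer genes, and that without the filter the median change between classes shifted lower.

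Sst in MGE-like nuclei, Arctic minus wild-type, was near 0 and turned to -0.0034 with RLE factors and -0.0022 with DESeq2. It was -0.0684 without WT-veh F3 and M3, 2 wells with 1025 and 995 nuclei in the size window. It ran from -0.14 to 0.14 when wells were left out. The other Sst contrasts kept their sign, at 0.26 to 0.58, -0.73 to -0.18, 0.22 to 0.60, -1.13 to -0.58 and 0.16 to 0.38. The share of all nuclei, WT-PMX minus WT-veh, turned to -0.0087 percentage points without those 2 wells and ran from -0.0135 to 0.0853 over single omissions, and Arc-PMX minus Arc-veh from -0.0837 to 0.0120. Median transcripts, Arc-veh minus WT-veh, became 3519 with Sst of 3 or more and 925.8 with 1 or more, and ran from -4182.5 to 1149.5; WT-PMX minus WT-veh ran from -4743.2 to 1157.7, and Arc-PMX minus Arc-veh became -4448 with Sst of 3 or more. With Sst of 1 or more, 4 genes not called with the filter changed sign: Kcnip4 (-0.082, Arc-PMX minus Arc-veh), 2210408I21Rik (-0.014, WT-PMX minus WT-veh), Nell1 (-0.46, Arctic minus wild-type) and Csmd2 (0.27, female minus male).

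With the replicate block, same-numbered wells as a block in place of sex, calls stayed at 0 in all 5 contrasts, and Sst gave 0.575, -0.547, 0.454, -1.001 and 0.0745 in that order. Correlations of same-numbered wells ran from -0.32 to 0.42, so the numbers do not pair wells. Thinning before the gate left 0 of the 58 nuclei and gave no value. No well held more than 9 of the nuclei.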

Other observations

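With the gate lowered to 1 Sst transcript, which takes in 202 nuclei, Nos1 was called between Arc-PMX and Arc-veh, and its values were looked at for that reason. 4 nuclei held 132, 98, 35 and 22 Nos1 transcripts, in Arc-PMX F1, M2, F2 and M2, and together carried most of the Nos1 transcripts of the 202 (38.7%, 28.7%, 10.3% and 6.45%). The next highest nucleus, of WT-veh F2, held 4. Nos1 ran from 0 to 42.5 CPM over the 6 Arc-veh wells and was at 385, 195, 144 and 587 in Arc-PMX F1, F2, M1 and M2, and at 0 in Arc-PMX F3 and M3, which held 1 nucleus each. Chodl, which marks long-range somatostatin cells together with Nos1, gave 2, 1, 0 and 0 transcripts in the 4 nuclei. The nucleus with 98, which held 3 Sst transcripts, was one of the 58 and carried 90.7% of their Nos1. The 11 wild-type wells with such nuclei lay between 0 and 82.8 CPM.

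Unc13c, a presynaptic priming factor gene, stood at 145 CPM in the 58 nuclei, 40.5 in nuclei with 1 Sst transcript, 22.3 in MGE-like nuclei without Sst and 70.1 in CGE-like nuclei, and was seen in 11 of the 58. Without the low-count filter it was higher than in MGE-like nuclei without Sst (log2 1.78, SE 0.39, adjusted p 0.00104 in edgeR) but not called against CGE-like nuclei (log2 0.22, SE 0.26, adjusted p 0.784). It was singled out after its values were seen.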
